A study of Homo sapiens with 20 samples.

Results

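The genes described here are 48 protein-coding genes of chromosome 11q22-q23 that flank NNMT, 24 that lie before it on the chromosome (YAP1 to USP28) and 24 that lie after it (RBM7 to CBL). They are listed in order of position, and the list leaves out other tested genes of the stretch. Both the stretch and its listed genes were chosen with earlier results of the same libraries known, which had shown a difference between the sides. The measured differences between the knockout pools and wild type are therefore given below as a description. Where genes are counted as called in these comparisons, the share of all genes stands beside the count. Nothing is read from those counts. Of 27864 genes in the count table, 16323 were tested, and all 48 listed genes were among them. The interval between the starts of YAP1 and CBL holds 190 genes of the table other than NNMT, of which 62 besides NNMT and the 48 were tested, 41 before NNMT and 21 after it.

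Messenger RNA was sequenced from 20 libraries in 7 groups, all of the breast cancer line SUM159PT, which is triple-negative and mesenchymal in character. Cells labelled KOs were targeted with 1 sgRNA at the transcription start site of NNMT, cells labelled KOd with 2 sgRNAs that delete its exon 1, and wild-type cells (wt) served for comparison. Each was grown as secondary tumorspheres in suspension, after 2 rounds of 6 days (3D), and as adherent cells (2D), with n = 3 libraries for each of these 6 groups. In the other group (n = 2) adherent wt cells were moved to tumorsphere medium at 50% confluency and collected at 80%. The 2D medium held 5% fetal calf serum, insulin and hydrocortisone, and the tumorsphere medium held B27, EGF and basic FGF, the growth factors at 20 ng/mL each. Each pool is a mixture of several clones, so its level is an average over them, and a large change in some clones cannot be told apart from a smaller change in all. Likewise, fewer cells with a transcript and less of it per cell cannot be told apart in bulk RNA.

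NNMT encodes nicotinamide N-methyltransferase, a cytosolic enzyme that uses S-adenosylmethionine to methylate nicotinamide. Its neighbours share a place on the chromosome, not a pathway. YAP1, the transcriptional coactivator at the end of the Hippo pathway, and BIRC2, an inhibitor of apoptosis, are amplified together in some carcinomas. ATM, the kinase that signals DNA double-strand breaks, and KMT2A, a histone H3 lysine 4 methyltransferase, are a tumour suppressor of the same arm and a gene rearranged in leukaemias.

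Promoter windows are printed for 5 of the 48 genes: USP28, the last listed gene before NNMT, RBM7 and REXO2, the first ones after it, and YAP1 and BIRC2, which lie at the far end of the interval and differed most between labelled KOs and wt in tumorspheres. Each window runs from 250 bases before to 50 bases after a RefSeq transcription start on GRCh38.p14, 5′ to 3′ along the gene. USP28 lies at chr11:113875523-113875822 on the minus strand, and the capitals are the first 50 transcribed bases. RBM7 lies at chr11:114400416-114400715 on the plus strand, and its capitals are the 155 bases between its start and that of C11orf71, which is transcribed the other way. REXO2 lies at chr11:114439217-114439516 and YAP1 at chr11:102110197-102110496, both on the plus strand, and their capitals are the TEAD motif GGAATG, read as CATTCC in REXO2, which begins 108 bases before the start of REXO2 and 162 bases before that of YAP1. BIRC2 lies at chr11:102346964-102347263 on the plus strand, and its capitals are the cAMP response element TGACGTCA, which begins 7 bases before its start.
USP28: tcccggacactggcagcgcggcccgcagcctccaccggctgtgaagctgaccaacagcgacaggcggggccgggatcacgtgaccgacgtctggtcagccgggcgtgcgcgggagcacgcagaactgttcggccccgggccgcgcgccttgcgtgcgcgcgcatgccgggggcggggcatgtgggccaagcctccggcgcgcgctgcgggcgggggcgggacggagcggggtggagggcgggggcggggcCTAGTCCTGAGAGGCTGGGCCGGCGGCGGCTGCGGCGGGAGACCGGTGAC
RBM7: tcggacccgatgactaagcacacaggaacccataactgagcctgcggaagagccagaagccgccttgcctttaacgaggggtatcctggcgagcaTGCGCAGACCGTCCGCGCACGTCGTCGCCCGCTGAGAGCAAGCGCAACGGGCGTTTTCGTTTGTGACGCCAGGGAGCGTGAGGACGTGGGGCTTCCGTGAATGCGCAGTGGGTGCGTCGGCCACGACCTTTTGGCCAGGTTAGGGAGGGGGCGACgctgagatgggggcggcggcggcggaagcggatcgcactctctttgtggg
REXO2: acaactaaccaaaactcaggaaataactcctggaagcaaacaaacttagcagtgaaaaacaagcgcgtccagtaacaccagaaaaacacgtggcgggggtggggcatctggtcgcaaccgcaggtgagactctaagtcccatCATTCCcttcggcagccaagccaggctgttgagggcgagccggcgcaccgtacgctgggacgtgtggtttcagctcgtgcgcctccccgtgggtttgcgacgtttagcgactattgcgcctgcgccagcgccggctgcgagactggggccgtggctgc
YAP1: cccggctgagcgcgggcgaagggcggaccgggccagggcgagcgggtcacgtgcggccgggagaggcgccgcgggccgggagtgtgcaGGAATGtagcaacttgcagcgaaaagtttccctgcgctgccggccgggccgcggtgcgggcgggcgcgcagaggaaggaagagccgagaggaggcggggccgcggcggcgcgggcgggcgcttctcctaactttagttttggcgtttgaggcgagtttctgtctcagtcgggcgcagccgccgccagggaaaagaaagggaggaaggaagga
BIRC2: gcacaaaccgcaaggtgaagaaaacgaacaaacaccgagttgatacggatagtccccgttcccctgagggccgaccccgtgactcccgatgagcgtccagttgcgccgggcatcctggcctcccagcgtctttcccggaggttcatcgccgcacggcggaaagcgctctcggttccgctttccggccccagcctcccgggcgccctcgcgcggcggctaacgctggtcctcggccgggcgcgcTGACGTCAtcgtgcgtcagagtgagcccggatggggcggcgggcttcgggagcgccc

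RefSeq windows were matched for 42 of the 48 genes (55 windows). MPZL2, LAYN, MPZL3, TIMM8B, TAGLN and CBL had no window and were not searched. The 55 windows held a median of 26 CpG dinucleotides, against 14 over all 35116 windows. GGAATG, the core bound by the TEAD partners of YAP1, was found on either strand in windows of YAP1, REXO2 and ALG9, and 14.0% of all windows hold it. TGACGTCA was found in windows of BIRC2, DDX10 and SIDT2, and 1.85% of all windows hold it. The CArG box (1.29% of all windows), the ER stress response element (0.0769%) and the interferon-stimulated response element (3.57%) were found in no window of the 42 genes. These are matches of letters, none overlapping another of the motifs in the windows printed.

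The 6 libraries labelled KOs were the deepest, with 37316513 to 43744817 counted reads each, against 26396964 to 32016875 in the other 14. Ribosomal RNA took 0.926% to 2.70% of their counts, against 2.82% to 8.46% elsewhere. In any comparison of labelled KOs with wt, depth, ribosomal RNA and pool cannot be told apart. A single library stood apart from its replicates in labelled KOs 2D (A), wt 3D (C) and KOd 3D (C). Levels below are in CPM, a gene's count relative to the library size scaled by the trimmed mean of M values (TMM). The 5 markers of the line, VIM, CD44, CDH2, AXL and ZEB1, were detected in every library and summed to 3767 to 7187 CPM. Of the markers of other cell types, a median of at least 1 CPM was reached by 2 of 5 epithelial and hormone receptor genes (KRT18 and GATA3; 157 to 480.4 CPM summed), 2 of 5 leukocyte genes (CD68 and PTPRC; 18.0 to 199.6 CPM), 2 of 4 endothelial genes (PECAM1 and KDR; 6.69 to 97.4 CPM), 2 of 4 neural genes (TUBB3 and MAP2; 113 to 553 CPM) and 3 of 4 fibroblast genes (PDGFRA, PDGFRB and DCN; 77.5 to 1650.1 CPM). EPCAM, ESR1, PGR, CD3E, LYZ, CDH5 and GFAP stayed under 1 CPM in all libraries and SOX10 was at 0. The part of other cell types in the results was not tested. Whether replicates came from separate cultures is not stated, and p-values therefore measure the spread among these libraries alone, which may be technical.

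NNMT itself (chromosome 11, 114257806 to 114313536 on GRCh38.p14) had 85.1, 82.9 and 86.4 CPM in the libraries labelled KOs 3D, 4.65, 5.18 and 5.64 CPM in KOd 3D, and 85.7, 79.5 and 129.9 CPM in wt 3D. In 2D it had 130.1, 113 and 76.0 CPM in labelled KOs, 4.39, 4.64 and 4.62 CPM in KOd, and 120.4, 128 and 102 CPM in wt. Cells in tumorsphere medium had 226 and 247 CPM. NNMT mRNA was thus low in every KOd library and overlapped wt in labelled KOs, so it does not check the KOs label, and NNMT protein was not analysed here.

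In the pool labelled KOs the genes before NNMT were lower than in wt while those after it lay near the wt level. The median log2 difference from wt in tumorspheres was -1.10 for the 24 genes before NNMT and 0.02 for the 24 after it, and in 2D it was -1.05 and 0.01. The after-minus-before difference came to 1.12 in 3D and 1.06 in 2D. In KOd it was -0.13 in 3D and -0.24 in 2D. Without the 3 libraries that stood apart it was 1.15 and 1.03 in labelled KOs 3D and 2D, and -0.11 and -0.24 in KOd 3D and 2D. These values were known when the stretch and its listed genes were chosen, and they carry no test.

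**Figure D1:**
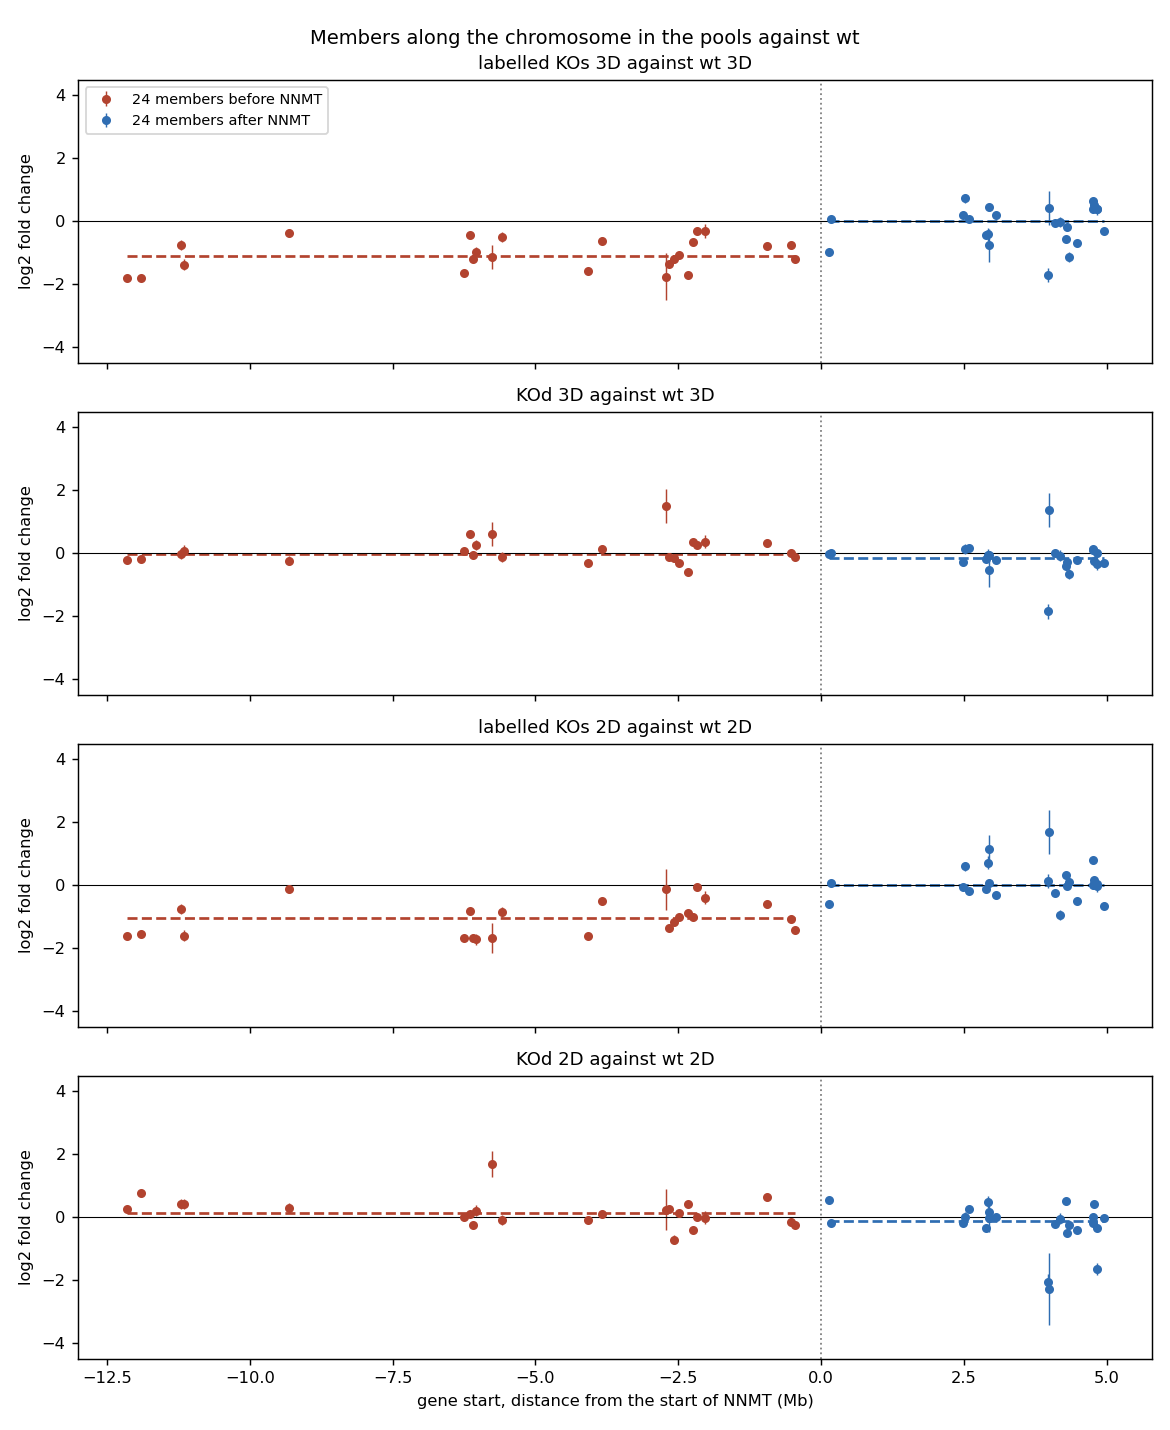
Log2 difference from wt of the same culture for each of the 48 genes in chromosome order, in 4 panels (labelled KOs 3D, KOd 3D, labelled KOs 2D, KOd 2D). Points are fitted log2 differences, bars are standard errors, and dashed lines are the medians of the genes before and after NNMT, which lie at -1.10 and 0.02 for labelled KOs 3D and at -0.01 and -0.14 for KOd 3D.

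Each of the 6 labelled KOs libraries had its median before NNMT below that after it by 0.956 to 1.14, and the other 14 libraries had an after-minus-before difference of -0.285 to 0.0730. With each gene set against its wt mean of the same culture, the median over the 24 genes before NNMT was -1.01, -0.915 and -1.11 in labelled KOs 3D, -0.0199, -0.0676 and -0.0440 in KOd 3D, and 0.0191, 0.0510 and -0.0648 in wt 3D. The median over the 24 genes after NNMT was 0.0476, 0.0413 and -0.000346 in labelled KOs 3D, -0.132, -0.207 and -0.0438 in KOd 3D, and -0.00602, 0.0133 and 0.00816 in wt 3D. Before NNMT the labelled KOs libraries lay apart from all others, and after it the libraries of labelled KOs 3D and wt 3D overlapped. In 2D the genes before NNMT had medians of -1.25, -1.04 and -0.969 in labelled KOs, 0.150, 0.112 and 0.145 in KOd, and 0.0166, -0.0324 and 0.0122 in wt. The genes after NNMT had medians of -0.108, 0.0534 and 0.111 in labelled KOs 2D, -0.127, -0.120 and -0.140 in KOd 2D, and 0.0129, -0.0199 and 0.0229 in wt 2D. Both sides lay close to wt 2D in the cells moved to tumorsphere medium, at -0.0906 and -0.131 before NNMT and -0.0473 and -0.0850 after it.

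**Figure D2:**
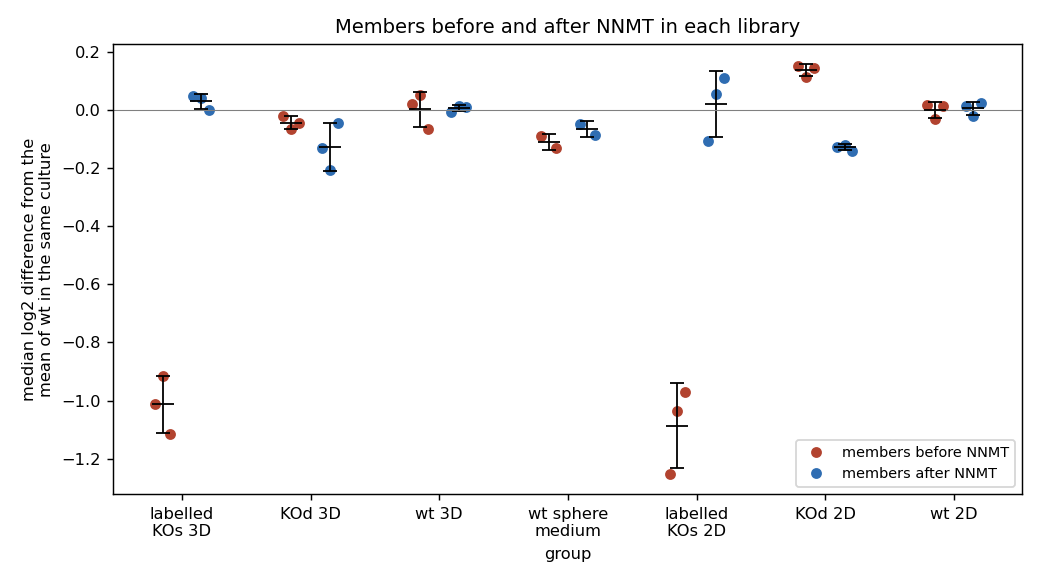
Median log2 difference from the wt mean over the genes before and the genes after NNMT, 1 point per library, with bars for the mean ± SD of each group (2D and 3D libraries against wt of the same culture, tumorsphere medium against wt 2D). The after-minus-before difference averaged 1.04 ± 0.0795 in labelled KOs 3D, -0.0836 ± 0.0738 in KOd 3D and 0.00339 ± 0.0606 in wt 3D (SD, n = 3 each), and 1.10 ± 0.0342 in labelled KOs 2D, -0.264 ± 0.0288 in KOd 2D and 0.00649 ± 0.00891 in wt 2D.

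By the threshold used throughout (adjusted p under 0.05 over all tested genes in edgeR's quasi-likelihood test), the labelled KOs 3D against wt 3D comparison placed 22 of the 24 genes before NNMT lower and 0 higher, and 8 of the 24 after NNMT lower and 6 higher. Over all genes tested 56.3% were called, 27.8% higher and 28.5% lower. In 2D the same pool had 20 of 24 lower and 0 higher before NNMT, and 6 lower and 6 higher after it, against 53.2% of all genes called, 27.7% higher and 25.5% lower. Every labelled KOs library lay below every wt library for 23 of 24 genes before and 9 of 24 after NNMT in 3D, where 33.8% of all genes did so, and for 20 and 7 genes in 2D, where 26.3% did so. Scaling by library totals alone moved the median of all genes by 0.163 in 3D and gave 10 higher and 25 lower among the 48 genes, against 6 and 30 with TMM. The interval was picked on this contrast, so nothing is read from these counts.

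YAP1, the Hippo coactivator, had 66.5, 71.8 and 68.7 CPM in labelled KOs 3D, 203, 193 and 235 CPM in KOd 3D, and 224, 232 and 274 CPM in wt 3D. Its 2D levels were 70.1, 64.7 and 72.3 CPM in labelled KOs, 247, 237 and 266 CPM in KOd, and 214, 202 and 211 CPM in wt. The labelled KOs libraries were about the same in both cultures and lay below every other library, at a log2 difference from wt of -1.82 ± 0.09 in 3D and -1.60 ± 0.09 in 2D (SE here and below). BIRC2, which blocks caspase activation and modifies TNF receptor signalling, had 23.3, 23.6 and 22.2 CPM in labelled KOs 3D, 67.9, 70.7 and 75.8 CPM in KOd 3D, and 75.7, 82.8 and 82.7 CPM in wt 3D. In 2D it had 22.6, 20.6 and 29.3 CPM in labelled KOs, 115, 123 and 117 CPM in KOd, and 70.0, 66.6 and 74.2 CPM in wt. BIRC2 was therefore lower than wt in labelled KOs in both cultures (-1.80 ± 0.10 and -1.54 ± 0.10) and higher than wt in KOd in 2D alone (0.76 ± 0.10, against -0.17 in 3D). CASP4, the inflammatory caspase that senses cytosolic lipopolysaccharide, lies between BIRC2 and CUL5 and differed less, at 70.4, 73.7 and 69.5 CPM in labelled KOs 3D, 72.2, 81.0 and 83.7 CPM in KOd 3D, and 82.3, 86.1 and 109.6 CPM in wt 3D. Its libraries of labelled KOs and wt overlapped in 2D. Per length its level was 50.2 CPM per kb in labelled KOs 3D, 55.7 CPM per kb in KOd 3D and 65.4 CPM per kb in wt 3D. On that scale LAYN was the lowest of the 48 genes, at 0.0144 ± 0.00539 CPM per kb in labelled KOs 3D and 0.0525 ± 0.0506 CPM per kb in wt 3D. ARCN1, a subunit of the coatomer that coats Golgi vesicles, was among the highest, at 63.7 ± 2.00 CPM per kb in labelled KOs 3D and 72.7 ± 2.04 CPM per kb in wt 3D (SD, n = 3 each).

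Of the 5 ubiquitin genes, the 3 before NNMT were below wt in every labelled KOs library. CUL5, the scaffold of a family of cullin-RING ubiquitin ligases, had 19.2, 19.4 and 20.7 CPM in labelled KOs 3D, 62.5, 66.5 and 65.7 CPM in KOd 3D, and 61.3, 64.7 and 59.6 CPM in wt 3D. It was equally low in labelled KOs 2D, at 21.1, 19.6 and 20.6 CPM, against 69.5, 59.3 and 67.3 CPM in KOd 2D and 67.8, 61.7 and 65.1 CPM in wt 2D. The spread within each group was small beside the gap to labelled KOs, which came to -1.65 ± 0.07 in 3D and -1.67 ± 0.07 in 2D. DCUN1D5, a cofactor in cullin neddylation, was lower by -0.74 in 3D and -0.75 in 2D. USP28, a deubiquitinase that stabilises MYC and the last of the listed genes before NNMT, had 20.4, 22.3 and 19.5 CPM in labelled KOs 3D, 45.0, 42.8 and 43.4 CPM in KOd 3D, and 46.2, 46.2 and 49.0 CPM in wt 3D. The adherent cultures gave 22.7, 18.5 and 19.2 CPM in labelled KOs, 49.2, 43.5 and 43.6 CPM in KOd, and 57.1, 54.5 and 51.6 CPM in wt. Its labelled KOs libraries lay below all others, with log2 differences from wt of -1.19 ± 0.09 in 3D and -1.43 ± 0.09 in 2D. On the other side of NNMT, UBE4A, a ubiquitin chain elongation factor, had 83.7, 85.2 and 81.8 CPM in labelled KOs 3D and 82.8, 89.7 and 87.1 CPM in wt 3D, which overlapped. In 2D it was lower in every labelled KOs library, at 76.8, 81.0 and 75.9 CPM, against 93.3, 89.98 and 94.0 CPM in wt (-0.25 ± 0.06). CBL, a ubiquitin ligase for receptor tyrosine kinases at the far end of the interval, was below wt in both cultures without overlap, with 79.8, 75.8 and 71.5 CPM in labelled KOs 3D and 95.2, 105 and 83.0 CPM in wt 3D (-0.32 ± 0.10). Its 2D levels were 64.1, 57.3 and 56.6 CPM in labelled KOs and 93.4, 82.6 and 102 CPM in wt (-0.65 ± 0.10).

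ATM had 56.1, 62.6 and 57.3 CPM in labelled KOs 3D, 157, 136 and 121 CPM in KOd 3D, and 124, 137 and 85.9 CPM in wt 3D. In 2D it had 28.6, 19.0 and 16.4 CPM in labelled KOs, 83.2, 76.1 and 84.0 CPM in KOd, and 72.7, 70.1 and 67.8 CPM in wt. The labelled KOs libraries were below wt in both cultures (-0.98 ± 0.17 in 3D and -1.72 ± 0.18 in 2D). NPAT, a coactivator of histone gene transcription, starts 429 bases from ATM in the opposite direction, and had 15.0, 15.0 and 12.9 CPM in labelled KOs 3D, 34.7, 29.8 and 30.4 CPM in KOd 3D, and 33.0, 35.9 and 29.1 CPM in wt 3D. Its log2 differences of labelled KOs from wt were -1.19 ± 0.11 in 3D and -1.67 ± 0.11 in 2D. ZW10, a kinetochore protein of the spindle checkpoint, had 17.9, 17.6 and 17.1 CPM in labelled KOs 3D, 28.4, 27.7 and 32.4 CPM in KOd 3D, and 30.6, 30.4 and 27.5 CPM in wt 3D. Adherent cells had 19.9, 27.8 and 32.5 CPM in labelled KOs, 55.3, 48.3 and 50.2 CPM in KOd, and 56.9, 52.0 and 60.7 CPM in wt. No labelled KOs library reached a wt library of its culture, at -0.75 ± 0.13 in 3D and -1.08 ± 0.13 in 2D. H2AX, the histone variant that ATM phosphorylates at breaks, lies after NNMT, and had 66.2, 56.8 and 62.8 CPM in labelled KOs 3D, 36.1, 36.0 and 40.6 CPM in KOd 3D, and 56.6, 47.8 and 39.1 CPM in wt 3D. In 2D its levels were 82.3, 122 and 123 CPM in labelled KOs, 38.1, 33.3 and 35.1 CPM in KOd, and 79.1, 117 and 137 CPM in wt, so it was low in KOd alone there (-1.64 ± 0.18 against wt). H2AX lies within DPAGT1, with 1592 shared bases, and the strand setting of the counting is not given in the sources used here, so the reads of overlapping genes may have been split uncertainly.

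Among the cytoskeletal and adhesion genes, RDX, which encodes the membrane-actin linker radixin, had 37.5, 38.7 and 36.9 CPM in labelled KOs 3D, 90.8, 91.1 and 89.9 CPM in KOd 3D, and 110.0, 120.0 and 107 CPM in wt 3D. In 2D it had 46.5, 52.6 and 56.5 CPM in labelled KOs, 156, 149 and 147 CPM in KOd, and 162, 152 and 165 CPM in wt. RDX was below wt in every labelled KOs library, by log2 differences of -1.57 ± 0.08 in 3D and -1.62 in 2D. DIXDC1, an actin-associated regulator of Wnt signalling, had 12.0, 12.9 and 12.5 CPM in labelled KOs 3D, 27.2, 27.5 and 26.4 CPM in KOd 3D, and 38.3, 37.6 and 46.5 CPM in wt 3D, and neither pool overlapped wt (-1.71 ± 0.09 and -0.59). EXPH5, an effector of the vesicle GTPase RAB27B, had 2.89, 3.43 and 3.06 CPM in labelled KOs 3D, 13.3, 12.2 and 5.74 CPM in KOd 3D, and 7.14, 7.22 and 6.10 CPM in wt 3D. Its 2D levels were 0.884, 0.268 and 0.284 CPM in labelled KOs, 3.43, 3.73 and 8.25 CPM in KOd, and 1.24, 1.30 and 2.20 CPM in wt. The order of the groups was the same in both cultures by their means, and the 2D difference of labelled KOs from wt moved from -1.68 ± 0.48 to -2.5 without the labelled KOs 2D library A. LAYN, a hyaluronan receptor, was close to the detection limit, at 0.0490, 0.0501 and 0.0232 CPM in labelled KOs 3D, 0.550, 0.383 and 0.315 CPM in KOd 3D, and 0.0646, 0.0672 and 0.314 CPM in wt 3D. Its ratio to wt 3D over summed counts was 0.278 in labelled KOs (exact 95% interval of counting error 0.0775 to 0.830) and 2.90 in KOd (1.51 to 5.92). A single library moved both: without wt 3D C the fitted log2 differences were -0.67 and 2.61, against -1.76 and 1.49 with it.

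The adhesion genes after NNMT went their own ways. MPZL3, an immunoglobulin-domain membrane protein, had 2.25, 1.73 and 2.15 CPM in labelled KOs 3D, 1.86, 1.66 and 2.07 CPM in KOd 3D, and 6.75, 6.62 and 6.76 CPM in wt 3D. In 2D it had 4.30, 4.21 and 5.08 CPM in labelled KOs, 1.48, 0.523 and 0.966 CPM in KOd, and 3.22, 4.06 and 5.14 CPM in wt. It was low in KOd in both cultures (-1.85 ± 0.24 in 3D and -2.06 ± 0.26 in 2D) and in labelled KOs in tumorspheres alone (-1.71 ± 0.24). PHLDB1, which binds the cell cortex near focal adhesions, had 72.8, 72.3 and 75.6 CPM in labelled KOs 3D, 92.5, 81.5 and 131 CPM in KOd 3D, and 158, 135 and 187 CPM in wt 3D, and both pools lay below wt there (-1.12 ± 0.16 and -0.66 ± 0.16). TAGLN, the actin-binding protein transgelin, had 21.7, 17.9 and 72.7 CPM in labelled KOs 2D, 14.7, 20.0 and 15.2 CPM in KOd 2D, and 14.0, 14.9 and 21.6 CPM in wt 2D. Its log2 difference of 1.15 ± 0.45 between labelled KOs 2D and wt 2D was 0.23 without the labelled KOs library C. TAGLN shares 3129 bases with PCSK7.

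The mitochondrial genes before NNMT were lower than wt in labelled KOs 3D, to differing extents. ACAT1, the mitochondrial acetoacetyl-CoA thiolase of ketone and isoleucine breakdown, had 66.2, 68.3 and 64.4 CPM in labelled KOs 3D, 136, 145 and 133 CPM in KOd 3D, and 87.7, 94.1 and 89.8 CPM in wt 3D. The pools stood on opposite sides of wt without overlap (-0.45 in labelled KOs and 0.61 ± 0.07 in KOd). DLAT, the acetyltransferase subunit of pyruvate dehydrogenase, had 46.4, 48.7 and 43.1 CPM in labelled KOs 3D, 88.3, 95.6 and 96.5 CPM in KOd 3D, and 73.8, 77.8 and 67.2 CPM in wt 3D, in the same order. In 2D DLAT was lower than wt in both pools, at -1.02 in labelled KOs and -0.42 in KOd. FDX1, an electron carrier of mitochondrial steroid and lipoylation chemistry, was lower by -0.62 in labelled KOs 3D and -0.51 in labelled KOs 2D. TIMM8B, a chaperone of mitochondrial import, and PTS, an enzyme of tetrahydrobiopterin synthesis, differed little, at -0.31 and -0.32 in labelled KOs 3D. PTS was the only gene before NNMT whose labelled KOs and wt libraries overlapped in 3D, and PTS, CASP4, LAYN and TIMM8B were those that overlapped in 2D.

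Kinase, phosphatase and cilium genes before NNMT were low in labelled KOs as well. SIK2, a salt-inducible kinase, had 24.6, 23.3 and 23.1 CPM in labelled KOs 3D, 61.2, 54.4 and 53.5 CPM in KOd 3D, and 58.0, 61.3 and 62.7 CPM in wt 3D (-1.36 ± 0.09 for labelled KOs). Its relative SIK3, after NNMT, differed from wt by 0.06 in labelled KOs 3D. PPP2R1B, a scaffold subunit of protein phosphatase 2A, shares 42856 bases of its locus with SIK2 and was lower by -1.20 ± 0.14 in labelled KOs 3D and -1.16 in labelled KOs 2D. DYNC2H1, the motor of retrograde transport in cilia, was lower by -1.38 ± 0.17 and -1.61 in labelled KOs 3D and 2D, whereas CEP164 and IFT46, a centriole appendage protein and a transport subunit of cilia that lie after NNMT, differed by 0.20 and -0.56 in 3D.

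The ER and Golgi genes lie after NNMT except ALG9, a mannosyltransferase of N-glycan assembly, which was lower by -1.07 in labelled KOs 3D and -1.01 in 2D. Of the other 7, 5 were called higher and 1 lower in labelled KOs 3D, against 27.8% and 28.5% of all genes, on the contrast that chose the stretch. In 2D 2 were called higher (TRAPPC4 and SIDT2, a lysosomal membrane protein counted in this group, at 0.80 and 0.72) and 0 lower, and the other 5 overlapped wt. In 3D SIDT2 lay below wt in every labelled KOs library. It had 40.9, 40.3 and 42.6 CPM in labelled KOs 3D, against 47.3, 46.0 and 72.3 CPM in wt 3D. HYOU1, an ER chaperone of the HSP70 family, had 257, 267 and 260.1 CPM in labelled KOs 3D, 147, 137 and 178 CPM in KOd 3D, and 202, 183 and 160.5 CPM in wt 3D. TRAPPC4, a subunit of a tethering complex for Golgi vesicles, had 51.8, 51.0 and 52.9 CPM in labelled KOs 3D, 33.2, 37.2 and 38.4 CPM in KOd 3D, and 33.0, 34.1 and 32.3 CPM in wt 3D. Both lay above wt in every labelled KOs library (0.52 and 0.65). PCSK7, a proprotein convertase, was higher by 0.45, SLC37A4, the ER glucose-6-phosphate transporter, by 0.39 and DPAGT1, which starts N-glycan assembly, by 0.37 in 3D, while ARCN1 was lower, by -0.19 ± 0.08. ZPR1, a zinc finger protein that binds translation elongation factor 1A, differed upward most among the genes after NNMT, with 61.8, 63.6 and 63.3 CPM in labelled KOs 3D, 40.4, 39.3 and 45.6 CPM in KOd 3D, and 37.9, 38.5 and 37.4 CPM in wt 3D (0.73 ± 0.15). KMT2A, at the far side, had 139, 143 and 136 CPM in labelled KOs 3D, 160.3, 145 and 100.2 CPM in KOd 3D, and 163, 166 and 97.1 CPM in wt 3D, and overlapped. In 2D it was lower in labelled KOs, at 69.6, 65.0 and 55.3 CPM, against 121, 110.1 and 122 CPM in KOd and 126, 111 and 129 CPM in wt.

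**Figure D3:**
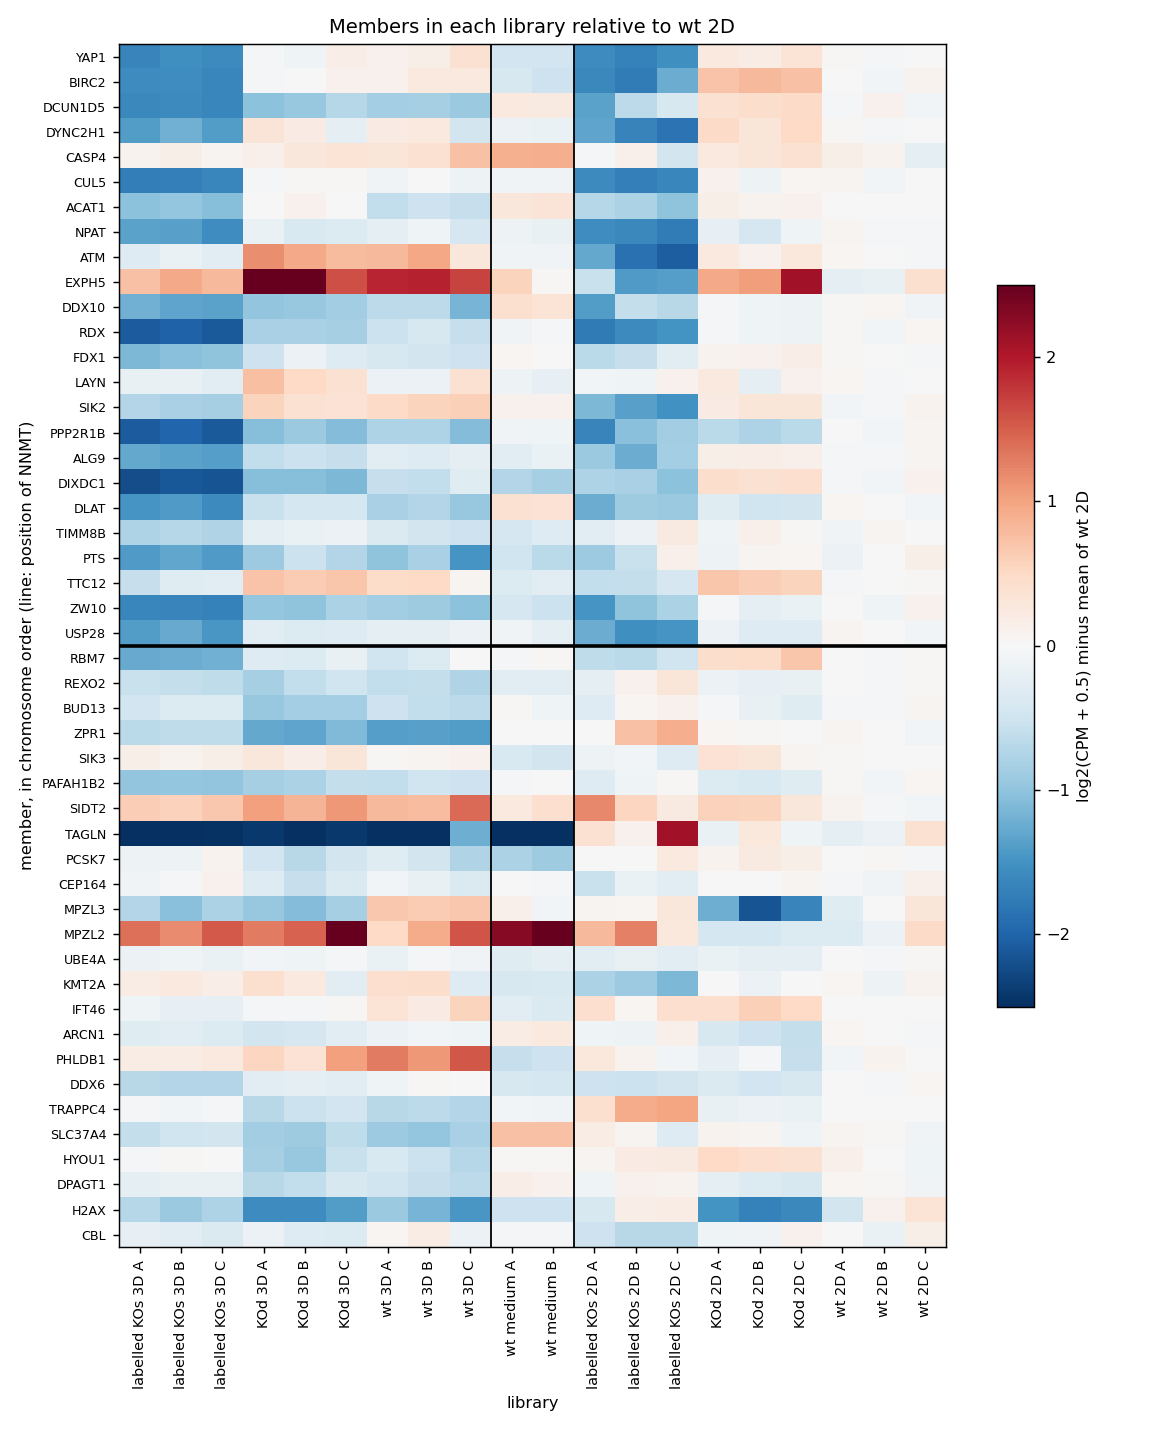
Log2(CPM + 0.5) minus the mean of wt 2D for the 48 genes in chromosome order (rows) in each of the 20 libraries (columns), with colours capped at 2.5 in either direction. The rows before NNMT are mostly below wt 2D in all 6 labelled KOs libraries, YAP1 for example at 66.5 to 71.8 CPM in labelled KOs 3D and 202 to 214 CPM in wt 2D.

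The genes next to NNMT differed from wt in both directions on either side of it. Before it, USP28 and ZW10 were below wt in labelled KOs as given above. ZBTB16, a transcriptional repressor and 1 of the nearest tested genes before NNMT, had 3.21, 2.95 and 2.66 CPM in labelled KOs 3D, 15.1, 12.0 and 13.9 CPM in KOd 3D, and 5.62, 4.70 and 11.0 CPM in wt 3D, and in 2D 20.3, 11.0 and 9.11 CPM in labelled KOs, 44, 43.6 and 47.9 CPM in KOd, and 35.5, 38.5 and 36.7 CPM in wt. HTR3A, a serotonin-gated channel subunit that lies beside it, went the other way, with 10.8, 10.8 and 10.5 CPM in labelled KOs 3D, 2.38, 2.17 and 0.981 CPM in KOd 3D, and 0.0969, 0.101 and 0.105 CPM in wt 3D. After NNMT, C11orf71 had 9.02, 8.44 and 9.15 CPM in labelled KOs 3D, 10.8, 12.4 and 11.6 CPM in KOd 3D, and 9.14, 8.90 and 9.58 CPM in wt 3D, where labelled KOs and wt overlapped. In 2D C11orf71 had 12.1, 10.5 and 7.01 CPM in labelled KOs and 8.82, 9.25 and 10.5 CPM in KOd. Its wt 2D libraries had 5.56, 6.63 and 7.57 CPM. The 2D differences from wt were 0.59 ± 0.17 in labelled KOs, which overlapped wt, and 0.53 ± 0.17 in KOd, which did not. RBM7, an RNA-binding subunit of the nuclear exosome targeting complex that shares its start region with C11orf71, had 20.8, 21.0 and 21.8 CPM in labelled KOs 3D, 40.4, 39.8 and 44.4 CPM in KOd 3D, and 35.7, 39.6 and 50.5 CPM in wt 3D. In 2D RBM7 had 32.5, 31.6 and 35.6 CPM in labelled KOs, 68.4, 69.2 and 81.9 CPM in KOd, and 50.1, 49.5 and 51.6 CPM in wt. RBM7 was below wt in labelled KOs (-0.98 ± 0.11 in 3D and -0.60 ± 0.11 in 2D) although it lies after NNMT. REXO2, a mitochondrial nuclease of short RNAs and the next of the listed genes, had 76.3, 74.8 and 72.4 CPM in labelled KOs 3D, 63.3, 73.3 and 80.1 CPM in KOd 3D, and 73.0, 74.5 and 66.6 CPM in wt 3D. REXO2 had 94.6, 121 and 139 CPM in labelled KOs 2D, 101, 97.9 and 99.4 CPM in KOd 2D, and 114, 110.0 and 115 CPM in wt 2D, and labelled KOs and wt overlapped in both cultures (0.06 ± 0.11 and 0.07 ± 0.11). CADM1, a cell adhesion molecule and the next tested gene, was listed at 0 to 0.0501 CPM in labelled KOs 3D and 0.035 to 0.275 CPM in KOd 3D, against 58.8, 62.6 and 41.3 CPM in wt 3D. It was at 0 to 0.119 CPM in labelled KOs 2D and at 0 in every KOd 2D library, against 27.5, 29.7 and 55.8 CPM in wt 2D, and at 12.9 and 15.1 CPM in tumorsphere medium.

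Tested genes of the interval that are not on the list were part of the stretch chosen on this contrast, and their counts are given as a description. In labelled KOs 3D, 23 of the 41 before NNMT were lower and 6 higher than wt (median -0.94), and 3 of the 21 after it were lower and 3 higher (median 0.09), where 28.5% of all genes were lower and 27.8% higher. In 2D the counts were 21 lower and 6 higher before NNMT (median -0.90) and 3 lower and 8 higher after it (median 0.25), where 25.5% of all genes were lower and 27.7% higher. In KOd 3D, 11 were lower and 12 higher before NNMT (median 0.07), and 5 were lower and 0 higher after it (median 0.00), where 17.5% of all genes were lower and 16.5% higher. In KOd 2D, 5 were lower and 10 higher before NNMT (median 0.27), and 2 were lower and 4 higher after it (median 0.08), where 22.5% of all genes were lower and 22.1% higher.

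The lower levels before NNMT extended beyond YAP1 toward the centromere. The 52 tested genes between 80 and 100 Mb of chromosome 11 had median log2 differences of -0.57 in labelled KOs 3D and -1.25 in labelled KOs 2D, against 0.04 in KOd 3D and 0.05 in KOd 2D. From YAP1 to NNMT (65 genes) the medians were -1.03 and -0.96 in labelled KOs 3D and 2D, from NNMT to CBL (45 genes) 0.06 and 0.08, and beyond CBL (74 genes) 0.00 and 0.08. The segments of the first 80 Mb lay between -0.22 and -0.01 in labelled KOs 3D and between -0.65 and -0.34 in labelled KOs 2D. Chromosome 11 was not alone: among the autosomes, chromosome 13 had the lowest median in labelled KOs (-0.83 in 3D and -0.91 in 2D). Chromosome 11 had -0.20 in 3D, where chromosome 4 was lower at -0.23, and -0.52 in 2D, where chromosome 4 had -0.17. In KOd the lowest autosome was chromosome 2, at -0.26 in 3D and -0.25 in 2D.

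**Figure D4:**
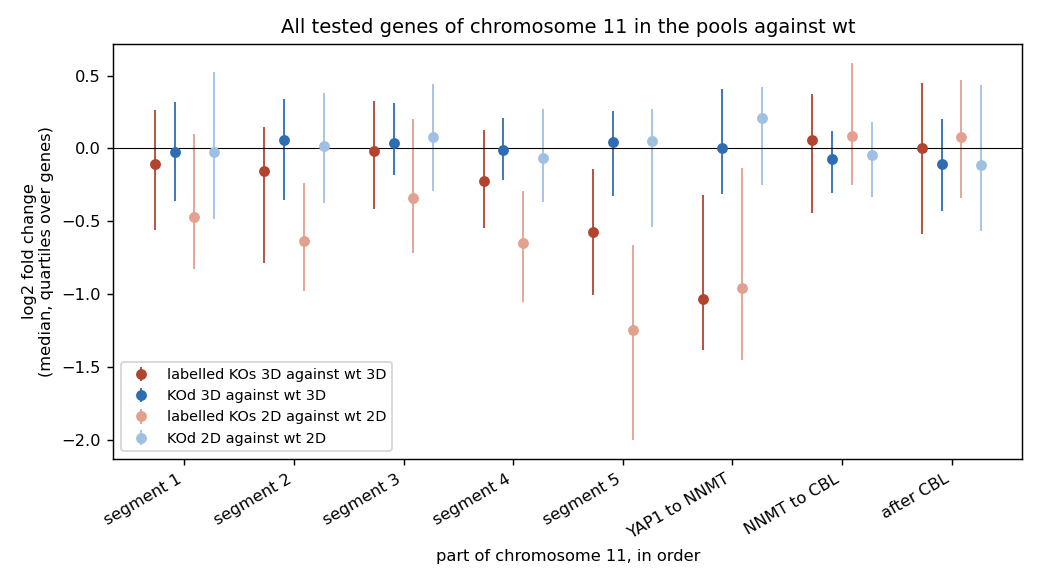
Median log2 difference from wt of the same culture, with quartiles as bars, for tested genes in 8 segments of chromosome 11, in order, for labelled KOs and KOd in 3D and 2D. The segment from 100 Mb to YAP1 holds 2 tested genes and is not shown. In labelled KOs 3D the median is -1.03 between YAP1 and NNMT and 0.06 between NNMT and CBL, and in KOd 3D the same segments lie at 0.00 and -0.07.

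Transcript length and base composition differed between the sides. Counted exon length had a median of 5487 bases before NNMT, 3917 bases after it and 3249 bases over the 15688 genes with both values, and GC content was 42.2%, 47.1% and 48.5%. Over all genes the log2 difference of labelled KOs from wt correlated with length at a Spearman rho of -0.18 in 3D and -0.30 in 2D, a description across genes that share the same libraries. Among the 24 genes before NNMT rho was -0.51 in 3D and -0.70 in 2D, and among the 24 after it -0.32 and -0.63. With a trend on length and GC removed, the after-minus-before difference was 0.79 in labelled KOs 3D and 0.90 in labelled KOs 2D, against -0.14 in KOd 3D and -0.27 in KOd 2D.

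In KOd, whose guides delete NNMT exon 1, the median log2 difference from wt was -0.01 before NNMT and -0.14 after it in 3D, and 0.13 and -0.11 in 2D. Against wt 3D, 3 genes before NNMT were higher and 3 lower, and after NNMT 0 were higher and 7 lower, where 34.0% of all genes were called, 16.5% higher and 17.5% lower. Against wt 2D, 7 were higher and 3 lower before NNMT, and 4 higher and 7 lower after it, where 44.6% of all genes were called, 22.1% higher and 22.5% lower. The stretch was chosen with differences between pools and wt known, so nothing is read from these counts either. With library totals in place of TMM the median of all genes moved by 0.155 in 3D and 0.112 in 2D, and the 48 genes split 11 higher and 3 lower in 3D (3 and 10 with TMM) and 16 higher and 8 lower in 2D (11 and 10 with TMM). EXPH5 was higher in KOd 2D (1.70 ± 0.41), and PPP2R1B lower, at 63.1, 59.4 and 63.2 CPM in KOd 2D, against 100.4, 96.5 and 107 CPM in wt 2D (-0.71 ± 0.14). MPZL2, an immunoglobulin-domain adhesion protein of epithelia, was at 0.0343, 0.0349 and 0.0690 CPM in KOd 2D, against 0.0732, 0.149 and 0.510 CPM in wt 2D. Its difference of -2.29 ± 1.14 was -1.20 without wt 2D C. RBM7 was higher in KOd 2D (0.54 ± 0.11) and at -0.01 in KOd 3D, and ZW10, USP28 and REXO2 were within 0.26 of wt on the log2 scale in both cultures.

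The change of culture from 2D to tumorspheres was tested in wt and in each pool with edgeR's quasi-likelihood test, adjusted over all genes. It was not the contrast that chose these genes, and in wt it uses no pool library. In the pools it shares libraries with the differences from wt known at that choice, so p-values there are not independent of it. Some genes named below were picked for the size of these changes. In wt, 11 of the 48 genes rose and 26 fell in 3D, with 6 rising and 14 falling before NNMT and 5 and 12 after it. Over all genes 63.7% were called, 33.3% rising and 30.4% falling. The median log2 change was -0.27 before NNMT and -0.24 after it, against 0.04 over all genes. In labelled KOs 7 rose and 26 fell (3 and 12 before NNMT, 4 and 14 after it), with a median of -0.25, against 0.02 over all genes, of which 65.0% were called, 32.9% rising and 32.1% falling. Scaling by library totals moved the median of all genes there by 0.217, and the 48 genes then split 14 rising and 19 falling. In KOd 8 rose and 25 fell (3 and 11 before NNMT, 5 and 14 after it), with a median of -0.25, against 0.07 over all genes, of which 66.4% were called, 35.2% rising and 31.2% falling.

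**Figure D5:**
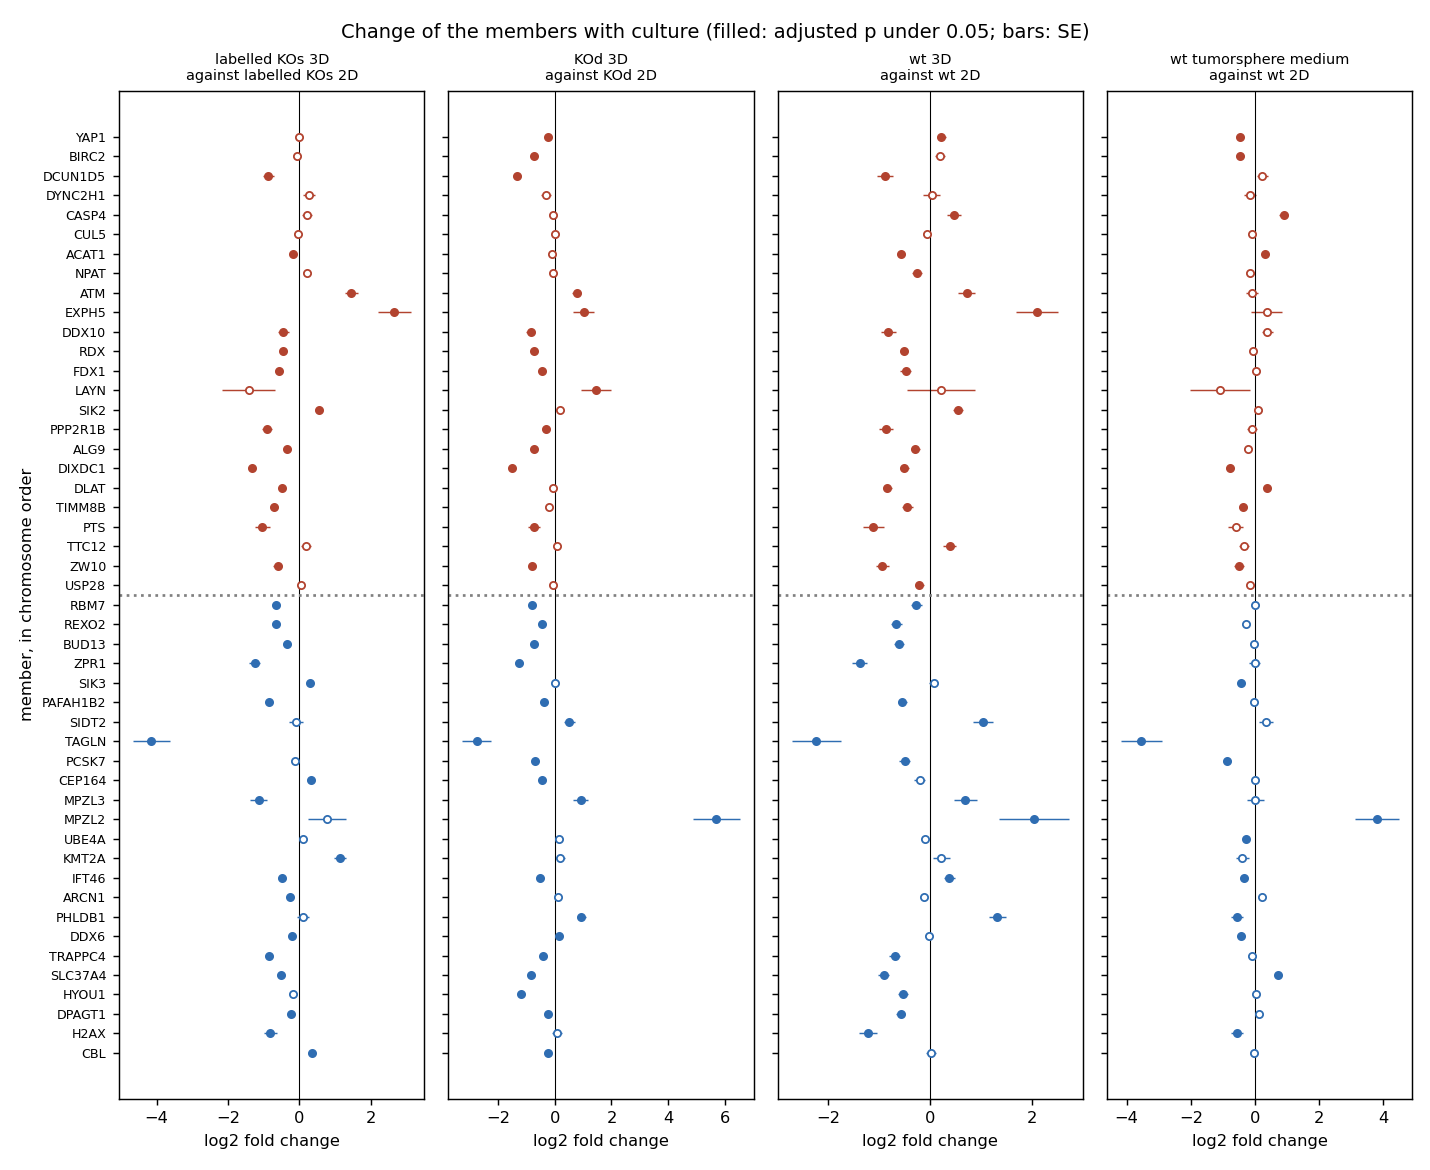
Log2 change of the 48 genes in chromosome order for 3D against 2D in labelled KOs, KOd and wt, and for wt in tumorsphere medium against wt 2D. Bars are standard errors and filled points passed an adjusted p of 0.05: 33 genes in labelled KOs, 33 in KOd, 37 in wt and 18 in tumorsphere medium.

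The counts by role that follow stand beside the shares of all genes that fell (32.1% in labelled KOs, 31.2% in KOd and 30.4% in wt), and the split in labelled KOs depends on the scaling, as given above. The 5 mitochondrial genes all fell in labelled KOs and in wt, and 2 of them fell in KOd, 0 rising in any pool. Of the 5 RNA genes, 5 fell in labelled KOs, 4 in KOd and 4 in wt, with DDX6, a helicase of mRNA decay, the exception in KOd, where it rose. Of the 8 ER and Golgi genes, 5 fell and 0 rose in labelled KOs, 6 fell and 1 rose in KOd, and 6 fell and 1 rose in wt. ZPR1 was the clearest RNA gene, at 61.8, 63.6 and 63.3 CPM in 3D and 99.7, 165 and 187 CPM in 2D in labelled KOs, and at 37.9, 38.5 and 37.4 CPM in 3D and 104, 99.4 and 94.0 CPM in 2D in wt. It fell without overlap of the cultures in labelled KOs (-1.26 ± 0.15, adjusted p = 9.53e-07), in KOd (-1.27 ± 0.15, adjusted p = 7e-07) and in wt (-1.39 ± 0.15, adjusted p = 3.04e-07). HYOU1 fell most in KOd, to 147, 137 and 178 CPM in 3D, against 371, 353 and 344 CPM in 2D (-1.21 ± 0.10, adjusted p = 1.1e-08). REXO2 fell in all 3, by log2 changes of -0.67 ± 0.11 in labelled KOs (adjusted p = 3.53e-05), -0.46 ± 0.11 in KOd (adjusted p = 0.00103) and -0.66 ± 0.11 in wt (adjusted p = 3.92e-05). RBM7 fell in labelled KOs (-0.65 ± 0.11, adjusted p = 4.03e-05) and KOd (-0.82 ± 0.11, adjusted p = 2.51e-06), and its smaller fall in wt (-0.27 ± 0.11, adjusted p = 0.0345) was lost in several alternatives.

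Cytoskeletal and adhesion genes changed in both directions, with 1 rising and 4 falling in labelled KOs, 5 and 3 in KOd, and 4 and 3 in wt, of 8. Over all genes the shares rising and falling were 32.9% and 32.1% in labelled KOs, 35.2% and 31.2% in KOd, and 33.3% and 30.4% in wt. TAGLN was at 1.69, 2.00 and 2.59 CPM in 3D and 21.7, 17.9 and 72.7 CPM in 2D in labelled KOs, at 2.69, 1.95 and 2.70 CPM in 3D and 14.7, 20.0 and 15.2 CPM in 2D in KOd, and at 2.39, 1.58 and 6.80 CPM in 3D and 14.0, 14.9 and 21.6 CPM in 2D in wt. Its 3D and 2D libraries did not overlap in any of the 3, and it fell by 4.15 ± 0.52 on the log2 scale in labelled KOs (adjusted p = 2.26e-06), 2.76 ± 0.51 in KOd (adjusted p = 0.000118) and 2.24 ± 0.49 in wt (adjusted p = 0.000686). The changes were -3.23 in labelled KOs without its 2D library C and -3.08 in wt without the wt 3D library C. PHLDB1 rose in wt, at 158, 135 and 187 CPM in 3D and 60.8, 67.7 and 62.9 CPM in 2D (1.33 ± 0.16, adjusted p = 1.43e-06). PHLDB1 rose in KOd too (0.93 ± 0.16, adjusted p = 6.48e-05), while its labelled KOs cultures overlapped. DIXDC1 fell in KOd, at 27.2, 27.5 and 26.4 CPM in 3D and 77.9, 75.4 and 77.0 CPM in 2D (-1.51 ± 0.09, adjusted p = 2.25e-10), and in labelled KOs by 1.34 ± 0.09. MPZL3 fell in labelled KOs (-1.14 ± 0.24, adjusted p = 0.000381) and rose in KOd (0.91 ± 0.27, adjusted p = 0.00641). In wt MPZL3 had 6.75, 6.62 and 6.76 CPM in 3D, above its 3.22, 4.06 and 5.14 CPM in 2D.

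MPZL2 was near the detection limit in KOd 2D and wt 2D and rose in KOd and wt. In labelled KOs it was at 1.37, 1.13 and 1.58 CPM in 3D and 0.764, 1.23 and 0.369 CPM in 2D, which overlapped, and its change (0.78 ± 0.54, adjusted p = 0.216) did not pass the test. It was at 1.28, 1.5 and 5.04 CPM in KOd 3D, against 0.0343, 0.0349 and 0.0690 CPM in KOd 2D, a ratio of summed counts of 54.6 (exact 95% interval 21.0 to 202, 233 counts against 4, counting error only). In wt it was at 0.517, 0.873 and 1.64 CPM in 3D, against 0.0732, 0.149 and 0.510 CPM in 2D, a ratio of 4.17 (2.52 to 7.25). The cultures did not overlap in either, and the fitted log2 changes were 5.70 ± 0.84 in KOd (adjusted p = 1.1e-05) and 2.05 ± 0.69 in wt (adjusted p = 0.0155). Single libraries carried much of this: the change was 4.80 in KOd without its 3D library C and 3.14 in wt without wt 2D C, and in wt it missed the threshold without wt 3D C (1.52), wt 2D A (1.61) or wt 2D B (1.80). LAYN rose in KOd (1.46 ± 0.54, adjusted p = 0.0235), with a count ratio of 2.81 (1.47 to 5.74), and missed the threshold without the KOd 2D library B (1.01). In labelled KOs LAYN changed by -1.41 ± 0.74, which did not pass (adjusted p = 0.104). EXPH5 rose in labelled KOs (2.66 ± 0.45, adjusted p = 6.11e-05), in KOd (1.02, adjusted p = 0.0224) and in wt (2.11 ± 0.41, adjusted p = 0.000229), and in labelled KOs the change was 3.48 without the 2D library A.

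Of the 4 DNA damage and mitosis genes, ATM rose and ZW10 fell in all 3. ATM rose in labelled KOs to 56.1, 62.6 and 57.3 CPM in 3D, against 28.6, 19.0 and 16.4 CPM in 2D (1.46 ± 0.17, adjusted p = 1.34e-06), and in wt by 0.72. ZW10 changed by -0.61 ± 0.13 in labelled KOs (adjusted p = 0.000553), -0.80 ± 0.13 in KOd (adjusted p = 3.16e-05) and -0.94 ± 0.13 in wt (adjusted p = 6.39e-06). H2AX fell in wt (-1.22 ± 0.18, adjusted p = 1.19e-05), and had nearly the same level in both cultures in KOd, at 36.1, 36.0 and 40.6 CPM in 3D and 38.1, 33.3 and 35.1 CPM in 2D. In labelled KOs H2AX was lower in 3D, at 66.2, 56.8 and 62.8 CPM, against 82.3, 122 and 123 CPM in 2D. USP28 fell slightly in wt (-0.21 ± 0.09, adjusted p = 0.0428), a call lost in several alternatives, and changed by 0.04 ± 0.09 in labelled KOs (adjusted p = 0.711) and -0.06 ± 0.09 in KOd (adjusted p = 0.578). KMT2A rose in labelled KOs, to 139, 143 and 136 CPM in 3D, against 69.6, 65.0 and 55.3 CPM in 2D (1.14 ± 0.17, adjusted p = 1.94e-05). PTS fell in labelled KOs (-1.04, adjusted p = 0.00034), in KOd (-0.73 ± 0.21, adjusted p = 0.00521) and in wt (-1.12 ± 0.21, adjusted p = 0.000189). DCUN1D5 fell in KOd to 38.7, 40.7 and 48.2 CPM in 3D, against 103, 108 and 111 CPM in 2D (-1.34 ± 0.16, adjusted p = 7.22e-07). It fell in labelled KOs too (-0.88 ± 0.16, adjusted p = 9.09e-05). In wt DCUN1D5 was also lower in 3D, at 43.6, 44.3 and 41.3 CPM, against 77.8, 85.7 and 75.3 CPM in 2D.

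Tumorsphere medium on adherent wt cells gave fewer calls among these genes than wt tumorspheres did, which differ from wt 2D in medium and suspension at once. That difference in calls was not tested, since the 2 comparisons share the wt 2D libraries and the groups differ in size. Of the 48 genes, 5 rose and 13 fell (3 and 5 before NNMT, 2 and 8 after it), and over all genes 32.0% were called, 15.6% rising and 16.4% falling. The count was 10 to 17 when 1 library was left out (10 without medium B and 11 without medium A), and 27 without the 3 libraries that stood apart, all of which belong to other groups. CASP4 rose, with 123 and 126 CPM in tumorsphere medium and 73.0, 70.5 and 56.3 CPM in wt 2D (0.90 ± 0.15, adjusted p = 0.000166). SLC37A4 rose as well, with 74.2 and 74.6 CPM in tumorsphere medium and 46.7, 45.3 and 42.0 CPM in wt 2D (0.74 ± 0.12, adjusted p = 0.000192), while in wt tumorspheres it fell. YAP1 fell, with 150.0 and 150.3 CPM in tumorsphere medium and 214, 202 and 211 CPM in wt 2D (-0.48 ± 0.10, adjusted p = 0.00138), and BIRC2 fell likewise (-0.46 ± 0.11, adjusted p = 0.00418). PCSK7 fell by 0.86 ± 0.13 on the log2 scale (adjusted p = 5.33e-05) and DIXDC1 by 0.78 ± 0.10 (adjusted p = 1.77e-05). TAGLN fell to 1.43 and 1.45 CPM in tumorsphere medium, against 14.0, 14.9 and 21.6 CPM in wt 2D (-3.54 ± 0.64, adjusted p = 0.000427). MPZL2 rose to 2.98 and 3.81 CPM in tumorsphere medium, against 0.0732, 0.149 and 0.510 CPM in wt 2D (3.80 ± 0.69, adjusted p = 0.000405). MPZL2 changed by 4.89 without wt 2D C. ZW10 fell (-0.49 ± 0.15, adjusted p = 0.0147), a call lost without medium A (-0.56), medium B (-0.44) or wt 2D C (-0.44). USP28 (-0.16 ± 0.10, adjusted p = 0.238), RBM7 (0.01 ± 0.12, adjusted p = 0.977), REXO2 (-0.27 ± 0.12, adjusted p = 0.0971) and LAYN (-1.09 ± 0.92, adjusted p = 0.403) did not pass the test. NNMT itself rose (1.01 ± 0.19, adjusted p = 0.000524).

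Whether the culture change differed between a pool and wt was tested with an interaction term. That term equals the pool's difference from wt in tumorspheres minus its difference from wt in adherent culture. It is thus built from differences known when the genes were chosen, and its passes are given as a description. It passed for 14 of the 48 genes in labelled KOs (5 before NNMT and 9 after it), where 36.8% of all genes passed, and for 15 in KOd (9 before and 6 after), where 29.1% passed. DIXDC1, DLAT, DPAGT1, ACAT1 and IFT46 passed in both pools, which share the wt libraries. YAP1 and BIRC2 passed in KOd, where their change was lower than in wt by 0.47 and 0.93 on the log2 scale, and H2AX passed there with a change 1.30 above that of wt.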

How the data were processed

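The deposited table holds raw read counts per gene, with Entrez identifiers, for 20 mRNA libraries, and a gene length column per the file header. Per the submitters' processing notes the authors used STAR and hg38; the counter, its strand setting and its annotation are not given in the sources used here. Libraries were stranded TruSeq, from RNA of 2 kits, per the labels. Entrez identifiers were matched to RefSeq GRCh38.p14 (27740 of 27864).

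Counts were filtered with filterByExpr (16323 genes kept), scaled with TMM and fitted in 1 quasi-likelihood model of the 7 groups (edgeR 4.0.16, limma 3.58.1, R 4.3.3; 13 residual degrees of freedom, biological coefficient of variation 0.143), with Benjamini-Hochberg adjustment over all genes and a threshold of 0.05. Fold changes are log2 with standard errors, and CPM are this fit's. The code was tested on simulated data. The members, gene lists and tests were chosen with earlier results of these data known. Genes named per contrast were NNMT, the 3 members per side with the largest absolute change, ZW10, USP28, RBM7 and REXO2, and the 2 nearest other tested genes per side of NNMT; members beyond these were named after their values were seen, to cover each role. Total counts were 26396964 to 43744817 per library; intervals on count ratios cover counting error only. Replicate letters pair groups only in name: the labels do not say that they mark a batch, and deviations of same-letter libraries correlated above 0.1 in every pair only between wt 3D and KOd 3D (r of 0.210, 0.218 and 0.342). Libraries of different letters did so there too, KOd 3D A with wt 3D B (0.208) and KOd 3D B with wt 3D A (0.125). The C libraries of both groups are among those that stood apart. Alternatives were DESeq2 1.42.0, other scalings, filters, thresholds and groups fitted, single libraries left out and, chosen after seeing the data, a replicate block within 1 culture, a length and GC trend, and leaving out RBM7 and REXO2. DNA and protein were not analysed here.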

Additional observations from a re-analysis of the deposited data

Results flagged for a closer look

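Of the genes whose culture change (3D minus 2D, log2) differed between a pool and wt, 6 are given here, and others passed as stated above. The interaction term was tested in edgeR's quasi-likelihood test and is built from contrasts known when the genes were chosen. The adjusted p-values given here are therefore not independent of that choice. In labelled KOs the change exceeded that in wt by 0.74 for ATM (SE 0.24, adjusted p = 0.0223), and it lay below that in wt for TAGLN (-1.92, SE 0.68, adjusted p = 0.0352) and MPZL3 (-1.84, SE 0.33, adjusted p = 0.000358). In KOd it lay below that in wt for DIXDC1 (-1.0, SE 0.13, adjusted p = 1.77e-05) and RBM7 (-0.55, SE 0.15, adjusted p = 0.00974), and exceeded it for MPZL2 (3.65, SE 1.24, adjusted p = 0.0351). DIXDC1 passed in labelled KOs as well (-0.83, SE 0.13, adjusted p = 9.77e-05). TAGLN and MPZL2 rest in part on the single libraries named with them above.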

How the results depend on the processing

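Across the alternatives, 1093 of 1145 values of single genes and 189 of 205 counts and side medians kept their direction and their side of the threshold, or moved by less than the margin set for them. That margin was a factor of 1.5 for counts, and for side medians the larger SD among libraries of the compared groups. It was wide in places: TAGLN in labelled KOs 2D against wt 2D counted as kept at 0.234 without labelled KOs 2D C, against 1.15. So did 27 calls against 18 in tumorsphere medium. The after-minus-before difference in labelled KOs 2D (1.06) was 1.03 to 1.13 with 1 library left out, 1.14 with means in place of medians and 0.899 with the length and GC trend removed. In labelled KOs 3D (1.12) it was 1.1 to 1.16, 0.937 and 0.79. In KOd 2D (-0.24) it was -0.305 to -0.23 with 1 library left out, -0.431 with means and -0.167 with only the compared groups fitted, and in KOd 3D (-0.13) it was -0.192 (without wt 3D B) to -0.113 with 1 library left out, -0.25 with means, -0.076 over all tested genes of the interval and -0.196 without RBM7 and REXO2. Of the 48 genes, 18 were called in tumorsphere medium, 10 to 17 with 1 library left out, and 27 both with only the compared groups fitted and without the 3 libraries that stood apart. In KOd 3D against wt 3D 13 were called, 21 without the 3 libraries that stood apart and 8 at an adjusted p under 0.01. With the replicate letter as a replicate block, the after-minus-before difference was 1.06 in labelled KOs 2D, -0.241 in KOd 2D, 1.12 in labelled KOs 3D and -0.118 in KOd 3D, and no count of calls moved by over 1.5 times. In wt 3D and KOd 3D alone the replicate block gave 12 calls and -0.105.

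Small changes reversed: USP28 in labelled KOs in 3D against 2D (0.039; -0.018 to 0.135 with 1 library left out), to -0.014 without labelled KOs 3D B and -0.018 without labelled KOs 2D B, USP28 in KOd (-0.06; -0.086 to 0.005) to 0.005 without KOd 2D A, and RBM7 in tumorsphere medium (0.008; -0.03 to 0.036) to -0.003 with relative log expression scaling and -0.003 with DESeq2, -0.03 without medium B and -0.005 without wt 2D B. The cause was not tested. LAYN had 1 to 18 counts per library and MPZL2 1 to 2 in KOd 2D and 2 to 13 in wt 2D, so depth limits them there. The knockout labels, pools and read depth cannot be told apart for labelled KOs.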
